A study of Mus musculus with 8 samples.

Results

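The genes that flank Cd1d1 and Cd1d2 on mouse chromosome 3 were followed by position in intestinal epithelial cells (IECs) of CD1d-KO and WT mice. The members were chosen by position and mean count from the genes of the deposited count table. Their smallest exon start coordinate, on either strand, lay from 82 to 92 Mb on chromosome 3. Their mean raw count over the 8 samples was at least 10, and Cd1d1, Cd1d2 and Lrat were left out. The table held 187 genes in this window, of which 61 were under the minimum and 3 were left out by name (2 of them reached the minimum), so that 124 of the 25239 genes listed were members. Coordinates are those of the table, in build mm10. The window itself was proposed with earlier results of these data known. All 124 received an adjusted p, and 2 of them, Rnu73b and Muc1, reached the minimum through WT alone (mean raw counts of 0.75 and 6.75 in CD1d-KO against 28.75 and 64.5 in WT), so that they had to differ.

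The study profiled bulk RNA of IECs to learn how CD1d and the natural killer T (NKT) cells that depend on it affect the epithelium. There were 4 CD1d-KO and 4 WT samples, each of 150000 cells of the proximal small intestine sorted for EpCAM and against CD45, CD31, Ter119 and a dead-cell dye. The labels give the knockout as CD1d1/2 KO, and the study's methods name the allele Del(3Cd1d2-Cd1d1)1Sbp, a deletion of both genes in every cell, with C57BL/6J as the other strain, mice aged 7 to 10 weeks of both sexes and breeding in 1 facility. The samples came from 2 experiments, the labels give neither the experiment nor the sex of a sample, and by the study's own account CD1d-KO and WT mice did not come from shared litters.

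CD1d is a relative of MHC class I molecules that displays lipids, in place of peptides, to NKT cells, and developing NKT cells need it, so mice without it lack them. A targeted allele is inherited with the chromosome it was made on, which breeding to another strain replaces only as far as recombination falls between the allele and its neighbours. Genes in this stretch of chromosome 3 serve unrelated functions and include Fc receptor-like genes, ephrins, lamin A and the first of the S100 genes, small calcium-binding proteins of epithelia and myeloid cells. Whether the DNA of the window differed in sequence between the genotypes was not analysed here.

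The targeted genes were as labelled. For Cd1d1, on the minus strand from 86995836 to 86999340, CD1d-KO 1 to 4 gave raw counts of 8, 3, 5 and 0 and WT 1 to 4 gave 81, 70, 94 and 50. Cd1d2 had 0, 0, 2 and 0 against 3, 3, 5 and 4. Total counts per sample were from 23610266 to 31629435. The sets of samples differed in ways besides genotype. Y-linked Ddx3y was at 1722 and 2053 normalised counts in CD1d-KO 1 and 2 and at most 1.048 in the other 6 samples, whose Xist was high. Normalised counts here are raw counts divided by the sample's DESeq2 size factor. The summed normalised count of 9 stomach markers was between 529.8 and 1131 in CD1d-KO and between 1792 and 12550 in WT, and CD1d-KO 1 to 3 were at or near 0 for all of them but Gkn3. The sum of 8 leukocyte markers was from 752.7 to 903.9 in CD1d-KO and from 969.5 to 1914 in WT, most of it Itgam, although CD45-positive cells were gated out. Epithelial markers summed to between 455000 and 508000, endothelial and stromal ones to at most 30.4 and 14.7, and erythroid ones were at 0. The part of leukocyte RNA in the results below was not tested. That of sex and of stomach RNA was tested only as far as the values without CD1d-KO 1 and 2 and with the stomach list as a covariate go. The stomach sums did not overlap between the genotypes and were mostly Gkn3 in CD1d-KO 1 to 3, so that covariate cannot be separated from genotype.

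Promoter sequences are shown for the called members with the largest changes among those that RefSeq holds, as the stretch just before the start of each. Of the 124 members 103 matched a RefSeq promoter window (build GRCm38.p6) by symbol, 31 of them with more than 1 start, and of the 16 members called below 12 matched. Each line gives the 250 bases before a start, 5′ to 3′ on the gene's strand. No bases are marked.
Rps3a1 (chr3:86142669-86142918, minus strand): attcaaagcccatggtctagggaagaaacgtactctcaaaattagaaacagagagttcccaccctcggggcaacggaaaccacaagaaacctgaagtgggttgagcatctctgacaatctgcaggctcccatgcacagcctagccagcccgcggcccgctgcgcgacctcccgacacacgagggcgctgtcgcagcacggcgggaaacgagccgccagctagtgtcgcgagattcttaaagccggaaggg
Dclk2 (chr3:86920885-86921134, minus strand): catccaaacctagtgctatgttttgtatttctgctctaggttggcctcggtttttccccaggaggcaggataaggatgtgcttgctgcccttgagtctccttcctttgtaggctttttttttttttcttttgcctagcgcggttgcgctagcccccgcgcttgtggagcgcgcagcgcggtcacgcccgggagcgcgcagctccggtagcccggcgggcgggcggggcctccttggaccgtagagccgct
Etv3 (chr3:87525328-87525577, plus strand): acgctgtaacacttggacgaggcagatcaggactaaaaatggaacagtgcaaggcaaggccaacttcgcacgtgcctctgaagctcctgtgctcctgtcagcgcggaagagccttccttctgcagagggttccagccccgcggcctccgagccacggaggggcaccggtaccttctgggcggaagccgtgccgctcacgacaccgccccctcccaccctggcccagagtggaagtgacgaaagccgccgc
Muc1 (chr3:89228806-89229055, plus strand): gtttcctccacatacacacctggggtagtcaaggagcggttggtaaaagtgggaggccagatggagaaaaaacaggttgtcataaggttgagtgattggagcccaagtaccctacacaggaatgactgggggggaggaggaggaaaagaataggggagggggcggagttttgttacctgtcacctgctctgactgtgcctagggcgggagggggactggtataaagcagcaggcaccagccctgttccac
Trim46 (chr3:89245898-89246147, minus strand): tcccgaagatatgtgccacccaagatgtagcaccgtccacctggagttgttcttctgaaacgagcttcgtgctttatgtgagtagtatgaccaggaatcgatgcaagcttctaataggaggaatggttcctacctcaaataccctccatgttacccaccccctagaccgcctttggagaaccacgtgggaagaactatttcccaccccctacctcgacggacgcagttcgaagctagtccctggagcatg
Tpm3 (chr3:90072401-90072650, plus strand): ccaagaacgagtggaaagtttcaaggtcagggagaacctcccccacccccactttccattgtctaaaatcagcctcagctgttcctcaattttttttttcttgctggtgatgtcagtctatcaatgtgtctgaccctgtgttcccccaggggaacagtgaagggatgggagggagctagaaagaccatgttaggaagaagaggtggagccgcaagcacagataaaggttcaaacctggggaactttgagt
For each of these 6 genes the line ends just before the gene's first base in the table, which for Trim46 is 1 of 3 RefSeq starts and for Tpm3 1 of 2.

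By DESeq2, genes called (adjusted p under 0.05 over all tested genes) were 16 of the 124 members, or 12.9%, where 4.03% of the 15446 tested genes were called. Of these, 15 were lower in CD1d-KO (12.1% of the members; background 2.38%) and 1 was higher (background 1.65%). With edgeR 12 members were called, where 1.66% of tested genes were, and with the summed stomach markers as a covariate 8, where 0.79% were. Setting Rnu73b and Muc1 aside, 14 of 122 members were called (11.5%). Among other genes with a mean raw count of at least 10 the share was 4.32%, and on the rest of chromosome 3 it was 6.35%, where 13 were lower and 20 higher. The log2 fold change (CD1d-KO over WT) was below 0 in 87 members (70.2%, against 49.7% of tested genes), with a median of -0.08 against 0.001. The genotypes did not overlap in 30 members (24.2%), 26 of them lower and 4 higher in CD1d-KO, where 9.61% of tested genes did not overlap. Rnu73b and Muc1, which had to differ, are among the 26. Most changes were small. Of the 16, 6 reached an absolute log2 fold change of 1, Rnu73b and Muc1 among them, and 8 were under 0.6. The median absolute value over the members was 0.15 against 0.10 over other genes with a mean raw count of at least 10.

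By position, the first 18 members, from 82.358 Mb on, held 0 calls by DESeq2 and 0 by edgeR, with 2 at an unadjusted p under 0.05 (Fam160a1 and Sh3d19). Lrat, left out by the rule, lies in this stretch (82892582 to 82903974, minus strand) and was called, higher in CD1d-KO (0.60, DESeq2 adjusted p = 5.66e-14). All 16 calls lay between 86.138 and 90.537 Mb, and 1 member, S100a6, lay beyond them. In 1 Mb bins of start position the calls numbered 3 of 5 members from 86 Mb, 1 of 9 from 87 Mb, 2 of 30 from 88 Mb, 7 of 39 from 89 Mb and 3 of 23 from 90 Mb. Rnu73b (from 86 Mb) and Muc1 (from 89 Mb), which had to differ, are counted in these bins. They are also counted by side and by neighbour below. Rnu73b lies within Rps3a1, so these 2 calls from 86 Mb share 1 locus. Over all tested genes 4.03% were called, and no bin was tested as a set. The bin from 89 Mb had 36 of 39 members below 0 and a median log2 fold change of -0.14, while medians were 0.15 and 0.14 in the 9 and 4 members from 84 and 85 Mb. There were 0 members from 91 to 92 Mb. On the side of lower coordinates 3 of 23 members were called, all within 1 Mb of Cd1d1, and on the other side 13 of 101. Of the 16 called members 8 lay next to another called member, in 4 of the 123 pairs of neighbouring members, namely Dclk2 and Etv3, Muc1 and Trim46, Pmvk and Adar, and S100a14 and S100a16. Gaps within these pairs were 604694, 796, 246013 and 8419 bases in that order. Whether calls lie side by side more often than by random placement was not tested.

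**Figure D1:**
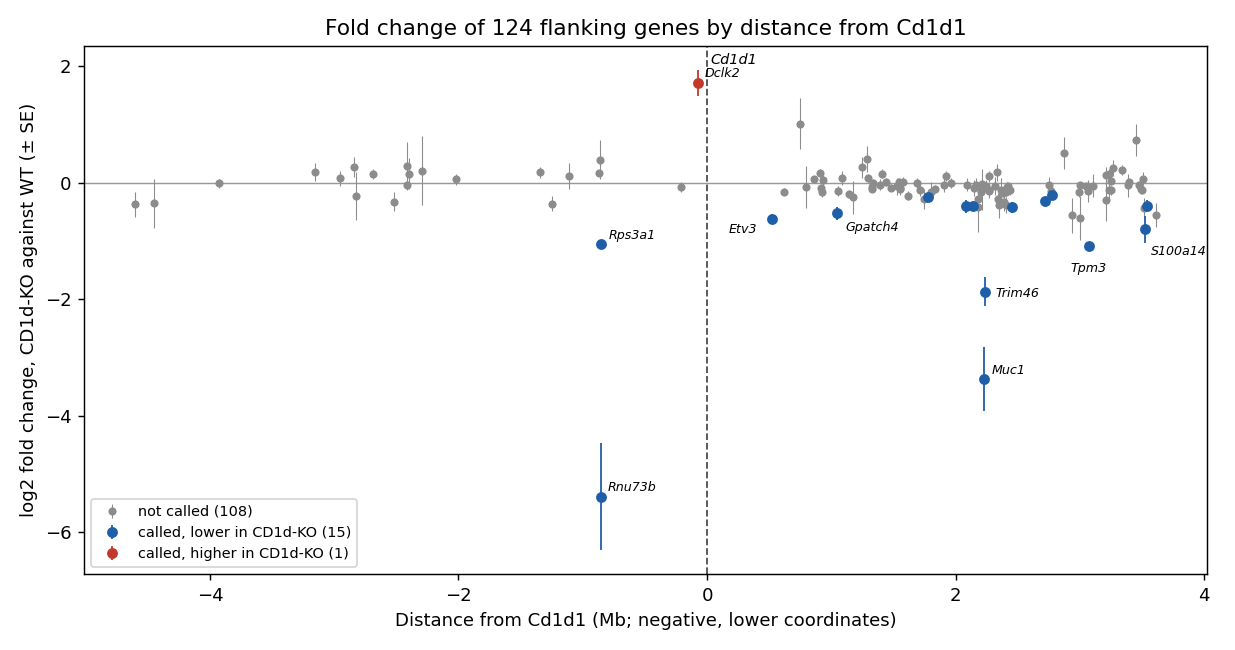
Log2 fold change (CD1d-KO against WT, ± SE) of each of the 124 members on the y axis against the distance of the gene from Cd1d1 in Mb on the x axis, with called members in blue (lower, 15) and red (higher, 1) and the other 108 in grey. Calls start 855.1 kb below Cd1d1 and end 3537.9 kb above it, and between them most members stay close to 0.

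The gene nearest to the deletion rose. Dclk2 (86786150 to 86920884, minus strand), a doublecortin-like kinase that binds microtubules, lies 75 kb from Cd1d1 and had normalised counts of 218, 194, 144 and 194 in CD1d-KO 1 to 4 and 48.1, 72.3, 67.9 and 39.1 in WT 1 to 4. The lowest CD1d-KO sample was above the highest WT sample, with means of 56.9 ± 15.8 in WT and 188 ± 31.3 in CD1d-KO (SD, n = 4). Its log2 fold change was 1.72 ± 0.22 (SE; DESeq2 adjusted p = 2.03e-12), and it was 1.57 in the samples without Y-linked counts. Its relative Dclk1, the tuft cell marker, was at -0.11 (adjusted p = 0.926) and Dclk3 at 0.55 (0.00217). Lrba, a large vesicle-trafficking protein that lies next to Dclk2 (86224690 to 86782694, plus strand), had 7034, 7212, 5819 and 6929 in CD1d-KO 1 to 4 and 6554, 7267, 6633 and 7818 in WT 1 to 4, which overlap (log2 fold change -0.07 ± 0.09, adjusted p = 0.821).

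On the other side no member lay within 526.2 kb, and the gap between Dclk2 and Etv3 was 604.7 kb. The immune genes in that gap were hardly counted in these cells: Fcrls and Cd5l were at 0 in all samples, and Fcrl1 and Fcrl5 had mean raw counts of 1.62 and 0.5. Etv3 (87525578 to 87540158, plus strand), an ETS-family transcriptional repressor, had 2251, 2269, 1757 and 2123 in CD1d-KO 1 to 4 and 3234, 3412, 3044 and 3195 in WT 1 to 4. All CD1d-KO samples were lower, with means of 3221 ± 151 in WT and 2100 ± 238 in CD1d-KO (SD, n = 4), which by DESeq2 came to -0.62 ± 0.09 (SE) on the log2 scale with an adjusted p of 1.38e-09. The next members were not called. Arhgef11, a RhoA exchange factor, had 2552, 2538, 2755 and 2618 in CD1d-KO 1 to 4 and 2936, 2909, 2986 and 2758 in WT 1 to 4 without overlap (-0.15 ± 0.06, adjusted p = 0.133). Pear1, a platelet receptor, had 21.5, 29.5, 24.4 and 19.2 in CD1d-KO 1 to 4 and 20.6, 11.5, 6.79 and 7.33 in WT 1 to 4 and overlapped (1.02 ± 0.44, adjusted p = 0.209), with a 95% interval of 0.15 to 1.89 at these low counts. Insrr, an insulin receptor relative that senses alkaline pH, was at -0.07 and Prcc, a nuclear splicing-related protein, at 0.06, with adjusted p-values of 0.971 and 0.764.

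The largest counts among the members belonged to Rps3a1 (86137940 to 86142668, minus strand), a protein of the small ribosomal subunit, 853.2 kb from Cd1d1. It had 12900, 12070, 12350 and 13080 in CD1d-KO 1 to 4 and 27570, 25400, 24150 and 27320 in WT 1 to 4. The genotypes stood far apart, the highest CD1d-KO sample being 0.542 of the lowest WT sample, with means of 26110 ± 1630 in WT and 12600 ± 468 in CD1d-KO (SD, n = 4). By DESeq2 the log2 difference was -1.05 ± 0.06 (SE, adjusted p = 5.66e-61). Per kb of exon this was 27700 normalised counts in WT and 13400 in CD1d-KO. Of the other 6 members in the list of ribosome and translation genes 0 were called by DESeq2 or by edgeR. None had an unadjusted p under 0.05, and log2 fold changes ran from -0.29 (Rps27) to 0.18. Over all tested genes 4.03% were called by DESeq2 and 1.66% by edgeR, so 0 calls in a list this small say little. The largest test statistic among the 6 was that of Gatb, a mitochondrial transfer RNA amidotransferase subunit (761, 767, 898 and 767 in CD1d-KO 1 to 4 and 633, 700.1, 744 and 743 in WT 1 to 4; 0.18 ± 0.09, DESeq2 adjusted p = 0.33).

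Small nucleolar RNAs, which guide chemical modification of ribosomal RNA, are made from introns of Rps3a1. Rnu73b (86140617 to 86140687, minus strand) lies in such an intron. Its raw counts in CD1d-KO 1 to 4 were 0, 1, 2 and 0, and those in WT 1 to 4 were 34, 35, 30 and 16. No CD1d-KO sample came near a WT sample. Summed raw counts were 3 against 115, a ratio of 0.0236 after scaling for depth, with an exact 95% interval of 0.00479 to 0.0706 that covers counting error only. DESeq2 called it (adjusted p = 1.37e-06), with a fitted log2 fold change of -5.39 ± 0.92 (SE) that depends on few counts. Rnu73b reached the minimum count through WT alone and had to differ, so this call carries no weight. Snord73a (86138791 to 86138858, minus strand), of the same kind and also within Rps3a1, had normalised counts of 28.6, 36.2, 24.4 and 36.5 in CD1d-KO 1 to 4 and 29.4, 29.3, 20.4 and 15.9 in WT 1 to 4, which overlap, with the higher mean in CD1d-KO (0.40 ± 0.33, adjusted p = 0.649). In libraries of polyadenylated RNA counted without strand, reads of a small nucleolar RNA and of the unspliced host transcript cannot be told apart.

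Tpm3 (90072651 to 90100902, plus strand), a tropomyosin that wraps actin filaments, was the other abundant member with a large change, 3073.3 kb above Cd1d1. It had 4684, 4629, 5237 and 4638 in CD1d-KO 1 to 4 and 9995, 10370, 10120 and 10290 in WT 1 to 4. The highest CD1d-KO sample was 0.524 of the lowest WT sample, and means were 10190 ± 168 in WT and 4797 ± 295 in CD1d-KO (SD, n = 4), or -1.09 ± 0.06 (SE) on the log2 scale by DESeq2 (adjusted p = 2.15e-74). Its paralogs elsewhere were not called, with Tpm1 at 0.07, Tpm4 at 0.11 and Tpm2, at a mean raw count of 20.8, at -0.47 (adjusted p = 0.649). Of 18 members in the list of cytoskeleton, trafficking and adhesion genes, 3 were lower and 0 higher, namely Tpm3, Muc1 and Rusc1. Of these, Muc1 reached the minimum count through WT alone and had to differ. Among all tested genes 2.38% were called lower, and the role lists were not tested as sets. Rusc1 (89083979 to 89093363, minus strand), a signalling adaptor with an SH3 domain, had 409, 358, 434 and 403 in CD1d-KO 1 to 4 and 501, 511, 615 and 494 in WT 1 to 4, all lower in CD1d-KO (-0.40 ± 0.11, SE; DESeq2 adjusted p = 0.00858). Its call was lost without CD1d-KO 2 (0.0894) and without WT 3 (0.0756).

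Both Rps3a1 and Tpm3 have copies of closely similar sequence at other sites. Of 110 members whose coding sequence was searched against the mouse genome (GRCm39), 18 had at least 1 copy of 90% identity or more over 50% or more of the coding sequence. Rps3a1 had 8 such copies, of 94.2% to 99.5% identity, and Tpm3 had 4, of 90.1% to 100%. Of the called members searched, these alone had one. Over all 124 members 12.9% were called, and whether calls go with copies was not tested. The other 16 with a copy were not called, such as Hax1 (highest identity 99.1%, log2 fold change -0.16), Fdps (98.9%, -0.03), Shc1 (98.5%, -0.06) and Rps27 (98.5% among 13 copies, -0.29). One alignment per read was counted, so reads that fit a gene and its copy equally could be assigned to either, and the part of this in the fall of Rps3a1 and Tpm3 was not tested. Exons of 25 members overlapped those of another gene, 2 of them called: Adar overlapped Chrnb2 (-0.03, adjusted p = 0.96) and 5830417I10Rik overlapped 1500004A13Rik (-0.15, 0.773).

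The neighbours Muc1 and Trim46 showed the largest falls after Rnu73b. They lie 796 bases apart with their 3′ ends facing each other. Trim46 (89234177 to 89245897, minus strand), a TRIM protein that bundles microtubules in neurons, had 19.7, 22.9, 29.3 and 26.9 in CD1d-KO 1 to 4 and 75.6, 81.7, 91.1 and 112 in WT 1 to 4. The genotypes did not overlap, and means were 90.2 ± 16.1 in WT and 24.7 ± 4.28 in CD1d-KO (SD, n = 4), or -1.87 ± 0.25 (SE) on the log2 scale by DESeq2 (adjusted p = 7.56e-11). It was at -1.64 with the stomach list as a covariate (DESeq2 adjusted p = 0.0154). Muc1 (89229056 to 89233381, plus strand), a transmembrane mucin of epithelial surfaces that is abundant in the stomach, had 2.68, 5.71, 2.93 and 14.4 in CD1d-KO 1 to 4 and 53, 30.4, 126 and 55 in WT 1 to 4. The summed stomach markers were 912.8, 827.7, 529.8 and 1131 in CD1d-KO 1 to 4 and 1793, 1792, 12550 and 6592 in WT 1 to 4. WT 3 and CD1d-KO 4 were highest in their genotype on both measures. WT 4 and WT 1 had 55 and 53 for Muc1 beside stomach sums of 6592 and 1793. In CD1d-KO 1 to 3 nearly all of the sum was Gkn3 (904.8, 822.9 and 522 normalised counts). Whether stomach RNA had a part in the fall of Muc1 was not tested beyond the covariate fit below. Means were 66.1 ± 41.5 in WT and 6.43 ± 5.49 in CD1d-KO (SD, n = 4) and the log2 fold change was -3.37 ± 0.55 (SE; DESeq2 adjusted p = 2.42e-07). Muc1 reached the minimum count through WT alone and had to differ, so this call carries no weight. With the stomach list as a covariate Muc1 was at -1.96 and not called (DESeq2 adjusted p = 0.208). The stomach sums did not overlap between the genotypes, and with this covariate 0.79% of tested genes were called. The fit therefore cannot separate the list from genotype, for Muc1 or for Trim46. In bulk samples fewer cells of a type and less RNA per cell cannot be told apart. Of the other mucins, Muc6 was at -1.70 (DESeq2 adjusted p = 0.0137). Muc2 and Muc3 were not called, nor was Muc4, at -0.30 just short of the threshold (DESeq2 adjusted p = 0.06). The genes on either side of the pair were near 0: Thbs3 at -0.11 and Krtcap2 at -0.06 (DESeq2 adjusted p = 0.953 and 0.874).

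**Figure D2:**
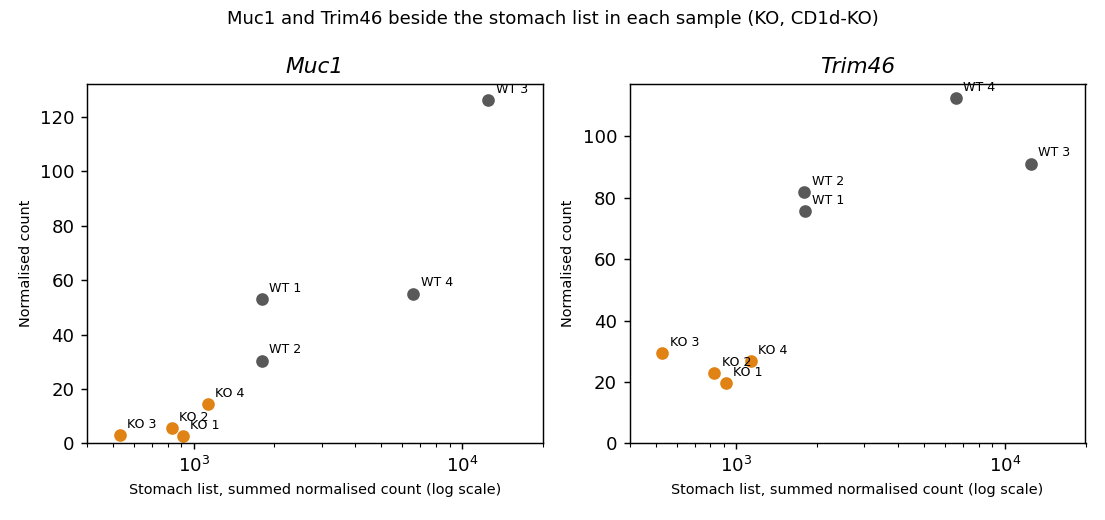
Normalised count of Muc1 (left) and Trim46 (right) on the y axis against the summed normalised count of the 9 stomach markers on a logarithmic x axis, 1 point per sample (grey WT, orange CD1d-KO). Muc1 is highest in WT 3 (126) beside the highest stomach sum (12550), while Trim46 lies between 75.6 and 112.5 in WT and between 19.7 and 29.3 in CD1d-KO.

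In the list of RNA processing genes, 2 of 10 members were called, Gpatch4 and Adar, both lower. For this list and the next, the share called over all tested genes was 4.03%. Gpatch4 (88043106 to 88055994, plus strand), a nucleolar G-patch protein, had 779.6, 752, 823 and 691 in CD1d-KO 1 to 4 and 1332, 1015, 1002 and 1018 in WT 1 to 4, with no overlap and 1 high WT sample. Its log2 fold change was -0.52 ± 0.11 (SE; DESeq2 adjusted p = 0.000202). Adar (89715022 to 89753455, plus strand), which edits adenosine to inosine in double-stranded RNA and has an interferon-induced form, had 2278, 2340, 2452 and 2465 in CD1d-KO 1 to 4 and 3153, 2803, 2894 and 3005 in WT 1 to 4. All CD1d-KO samples were lower (-0.31 ± 0.06, SE; DESeq2 adjusted p = 5.94e-05), but not past the threshold in the samples without Y-linked counts (-0.27, 0.0618). The remaining 8 were not called, and the list had a median log2 fold change of -0.03. In transcription and chromatin, Etv3 was the only 1 of 13 members called, and Gatad2b, a NuRD complex subunit, had the next largest statistic (2895, 2972, 2588 and 2752 in CD1d-KO 1 to 4 and 2456, 2288, 2223 and 2688 in WT 1 to 4; 0.22 ± 0.08, adjusted p = 0.105). It was called without CD1d-KO 3 (0.0472) and without WT 4 (0.0207).

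Of 14 members in the list of lipid, sugar and cofactor metabolism and transport, 2 were called, Pmvk and Pklr, both lower, where 4.03% of tested genes were called. Pmvk (89454541 to 89469009, plus strand), which makes diphosphomevalonate on the way to sterols and isoprenoids, had 619.6, 575, 654 and 534 in CD1d-KO 1 to 4 and 828, 842, 732 and 798 in WT 1 to 4. The genotypes did not overlap, and the log2 fold change was -0.42 ± 0.09 (SE; DESeq2 adjusted p = 0.000346). Fdps, a later enzyme of the same pathway and also a member, was at -0.03 ± 0.11 (adjusted p = 0.962). Pklr (89136142 to 89146594, plus strand), the liver form of pyruvate kinase that ends glycolysis, had 4234, 4655, 5179 and 5276 in CD1d-KO 1 to 4 and 5665, 6520, 6593 and 6669 in WT 1 to 4, without overlap (-0.40 ± 0.09, SE; DESeq2 adjusted p = 0.000518). It was at -0.28 in the samples without Y-linked counts (adjusted p = 0.0575). Values over the list ran from -0.56 to 0.74, with a median of -0.13.

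Among 14 members in the list of kinases, ligases and signalling, Dclk2 was higher and Trim46 and Ube2q1 were lower, where 4.03% of tested genes were called. Ube2q1 (89773609 to 89783997, plus strand), a ubiquitin-conjugating enzyme, had 2162, 2336, 2220 and 2104 in CD1d-KO 1 to 4 and 2454, 2519, 2620 and 2521 in WT 1 to 4. It had the smallest change of all called members (-0.20 ± 0.06, SE; DESeq2 adjusted p = 0.0268), and leaving out 1 sample ended the call in 7 of 8 cases, all but CD1d-KO 2, with adjusted p-values from 0.0503 without CD1d-KO 3 to 0.148 without WT 3. 5830417I10Rik (88777057 to 88829371, plus strand), for which no function is given here, had 971, 884, 975 and 959 in CD1d-KO 1 to 4 and 1187, 1020, 1098 and 1187 in WT 1 to 4. It was at -0.25 ± 0.08 (adjusted p = 0.0458) and leaving out 1 sample again ended the call in 7 of 8 cases, all but WT 2, with values up to 0.259 without CD1d-KO 2.

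At the far end of the window lies the start of the S100 gene cluster. Of 5 members from the S100 list 2 were lower and 0 higher, where 2.38% of tested genes were called lower. S100a16 (90537254 to 90543151, plus strand) had 617, 593, 716 and 653 in CD1d-KO 1 to 4 and 809, 916, 850.2 and 796 in WT 1 to 4, with no overlap (-0.39 ± 0.09, SE; DESeq2 adjusted p = 0.00114). S100a14 (90526849 to 90528835, plus strand), 8419 bases away, had 89.4, 73.3, 99.7 and 82.6 in CD1d-KO 1 to 4 and 124, 195, 182 and 99 in WT 1 to 4. It was the only called member in which the genotypes overlapped (-0.80 ± 0.23, SE; DESeq2 adjusted p = 0.0166), and its call was lost when any of CD1d-KO 2, CD1d-KO 4, WT 2 and WT 3 was left out. S100a13 (-0.43), S100a6 (-0.55) and S100a1 (0.07) were not called, with adjusted p-values of 0.126, 0.143 and 0.861. The neutrophil genes S100a8 and S100a9 were among 7 listed S100 genes under the mean count minimum.

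**Figure D3:**
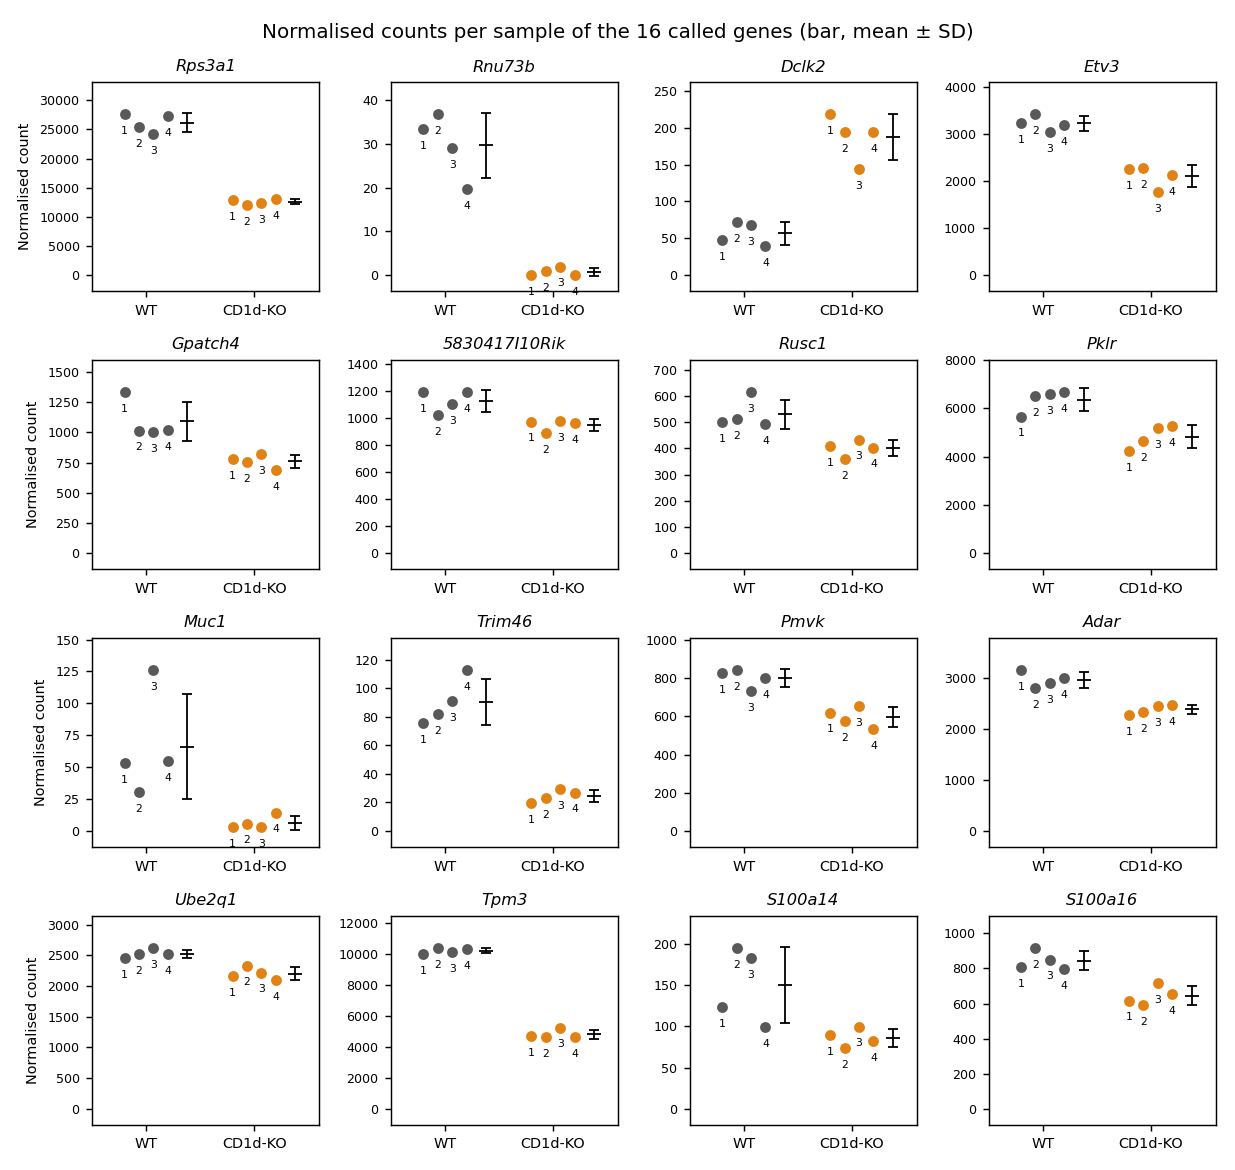
Normalised count per sample (y axis, starting at or below 0) of the 16 called members in order of position, with WT in grey and CD1d-KO in orange, replicate numbers under the points and the mean ± SD (n = 4) at the side of each group. Dclk2 alone is higher in CD1d-KO, and S100a14 alone has an overlap, CD1d-KO 3 (99.7) against WT 4 (99.0).

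In 2 of the lists, with 3 and 4 members, 0 were called by DESeq2 or by edgeR and 0 had an unadjusted p under 0.05. Over all tested genes 4.03% were called by DESeq2 and 1.66% by edgeR, so 0 calls in lists this small say little. Of the immune receptors that reached the minimum, Il6ra, the interleukin-6 receptor, had 53.6, 41.9, 51.8 and 77.8 in CD1d-KO 1 to 4 and 32.4, 46.1, 39.8 and 40.3 in WT 1 to 4 and overlapped (0.51 ± 0.27, DESeq2 adjusted p = 0.358). Tlr2, the receptor for bacterial lipopeptides, was at 0.19 ± 0.15 (adjusted p = 0.59), and Sema4a was at 0.01. Of the secreted and ephrin genes, Efna4 and Efna1, ligands of Eph receptors, were at 0.18 ± 0.14 and 0.11 ± 0.10 (adjusted p = 0.591 and 0.705), and Efna3 and Thbs3 were at -0.05 and -0.11.

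The other members with the largest mean counts were not called. Hdgf, a growth factor-like nuclear protein, had 12830, 13030, 13590 and 11550 in CD1d-KO 1 to 4 and 11940, 10970, 10940 and 11410 in WT 1 to 4, and Trim2, a ubiquitin ligase, had 11520, 12310, 10040 and 11360 in CD1d-KO 1 to 4 and 9487, 10470, 9838 and 10980 in WT 1 to 4. Both overlapped, with the higher mean in CD1d-KO (0.17 ± 0.07, DESeq2 adjusted p = 0.124, and 0.15 ± 0.08, 0.336), and Hdgf was called without CD1d-KO 4 alone (0.0156). Sh3d19, an adaptor gene that borders Rps3a1 on the other side, had 7234, 7486, 6937 and 7310 in CD1d-KO 1 to 4 and 6119, 6701, 6371 and 6640 in WT 1 to 4, all higher in CD1d-KO, at 0.17 ± 0.05 just short of the threshold (adjusted p = 0.053). For the 108 members not called, the 95% interval of the fold change stayed inside 1.5-fold either way in 80 and inside 2-fold in 96, and it reached 2-fold in 12. Among these were Pear1, Npr1, a natriuretic peptide receptor (0.74 ± 0.28, adjusted p = 0.125), and others with few counts.

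**Figure D4:**
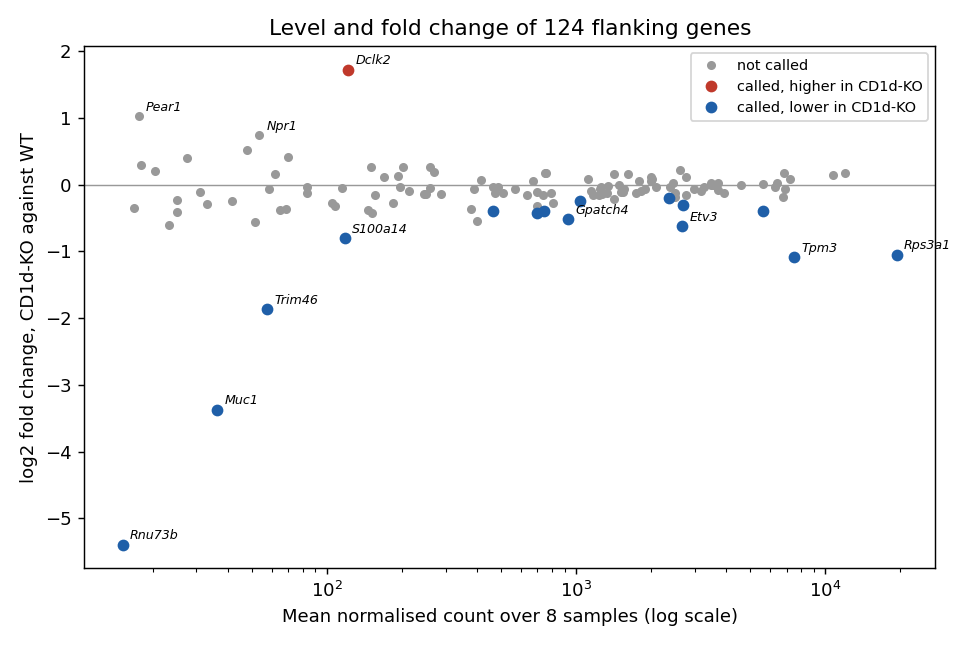
Log2 fold change (CD1d-KO against WT) of the 124 members on the y axis against the mean normalised count over the 8 samples on a logarithmic x axis, called members in blue (lower) or red (higher) and the rest in grey. Rps3a1 and Tpm3 fall by 1.05 and 1.09 among the highest counts, and Rnu73b, Muc1 and Trim46 lie lowest at small counts.

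With CD1d-KO 3 and 4 set against the 4 WT samples, none of which held Y-linked counts beyond 1.048, there were 10 called members, 9 of them lower, where 2.57% of 14473 tested genes were called. Of these 9 were among the 16, namely Rps3a1, Rnu73b, Dclk2, Etv3, Gpatch4, Muc1, Trim46, Pmvk and Tpm3. Fhdc1, a formin-like gene, was called there as well (-0.65, DESeq2 adjusted p = 0.00297). The other 7 of the 16 were not called in this fit (5830417I10Rik, Adar, Pklr, Rusc1, S100a14, S100a16 and Ube2q1), and all 16 kept their direction. Leaving out CD1d-KO 1 and 2 changes the number of samples and the Y-linked counts together, and the cause was not tested. Tpm3 was at -1.04, Rps3a1 at -1.04, Trim46 at -1.68 and Etv3 at -0.73 there. The 8 genes left when Muc1 is set aside from these 9 were called in each of 16 alternative fits, with Gpatch4 (up to 0.0243 in edgeR) and Pmvk (up to 0.031 without CD1d-KO 1 and 2) nearest to the threshold. Rnu73b, 1 of these 8, and Muc1 had reached the minimum count through WT alone. They had to differ, so their calls in these fits carry no weight.

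**Figure D5:**
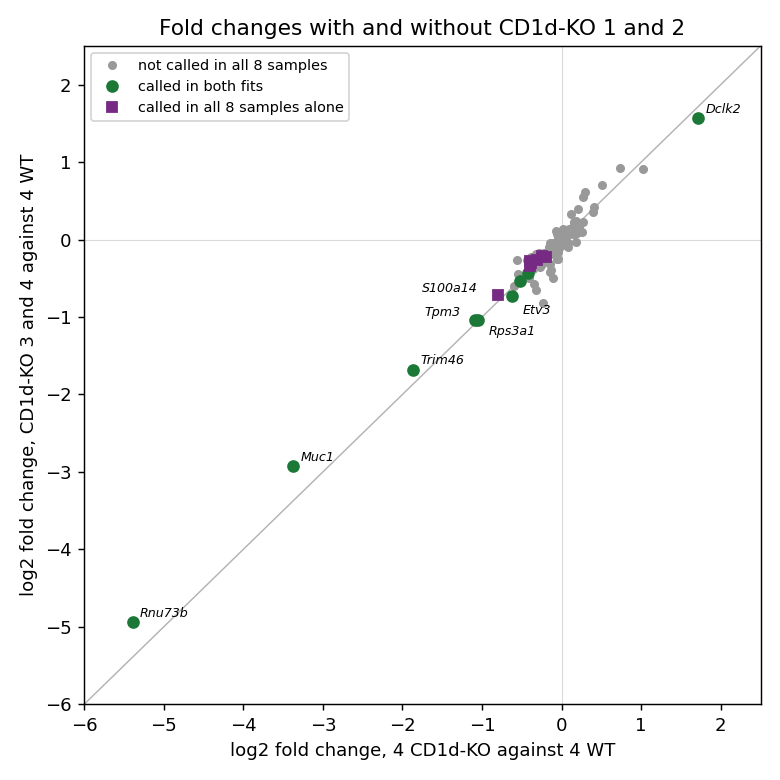
Log2 fold change of the 124 members in CD1d-KO 3 and 4 against WT (y axis) plotted on that in all 8 samples (x axis), green for members called in both, purple squares for those called in all 8 samples alone, grey for the rest, and a line of equality. The points share 6 samples, and the 9 members called in both run along the line from Rnu73b (-5.39, -4.94) to Dclk2 (1.72, 1.57).

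Just outside the window, the last expressed genes below 82 Mb were Ctso (0.09) and Asic5 (0.44, DESeq2 adjusted p = 0.765), next to Map9 (-0.37) and Npy2r (-0.35) inside. Above 92 Mb the first were Sprr2a3 (-1.92, adjusted p = 2.1e-13) and Tchh (-0.20), next to S100a16 and S100a6 inside. Under the minimum count lay Lrrc71 and Bglap3, with mean raw counts of 6.88 and 6.62, and over it Rnu73b and Npy2r, with 14.75 and 17.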

How the data were processed

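The 8 samples were grouped by genotype from their labels. The authors deposited raw fragment counts per gene, with no normalization. Per the file headers these came from featureCounts 1.6.4, over exons by gene of an mm10 annotation, with primary alignments and strand not used. The study's methods name a KAPA mRNA kit, HISAT2 and GRCm39, so builds differ, and coordinates here are the table's, mm10. Unused per-sample columns numbered 0. DESeq2 1.42.0 in R 4.3.3 was fitted over all genes with genotype as the only term. Benjamini-Hochberg adjustment covered 15446 genes. For 3638 genes under a mean of 2.41 normalised counts (independent filtering) and 4 genes (Cook's rule) there was no adjusted p. The tests ran on simulated data first. Copies were sought with BLAST 2.17.0. The values of 1 leukocyte marker and a motif search of the promoters are not reported here.

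The members and lists were chosen with earlier results of these data known. Named members were all those called, the 5 nearest to Cd1d1 on each side, the 3 with the largest mean count, up to 2 per role list by test statistic, overlapping genes and rows related by symbol, besides Cd1d1, Cd1d2 and Lrat. Fhdc1, Hax1, Shc1, Rps27, Fdps, Npr1, Sh3d19 and the genes beside Muc1 and Trim46 were named after their values were seen, as were other S100 and ephrin genes. Alternatives were TMM factors, size factors without the 50 most abundant genes, 2 low-count filters, each sample left out, CD1d-KO 1 and 2 left out, a replicate block, edgeR 4.0.16, 3 other member rules and, added after seeing the data, the summed stomach list as a covariate. P-values measure the spread between these mice, 4 per genotype, over 2 experiments whose samples the labels do not name.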

Additional observations from a re-analysis of the deposited data

Results flagged for a closer look

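Of 60 groups of 4 values over the named members, 7 had a sample far from the other 3 by Dixon's criterion, which chance gives in about 1 of 20 groups. Among called members, WT 1 stood high for Gpatch4 (1332 normalised counts, the others 1002 to 1018) and low for Pklr (5665 against 6520 to 6669). WT 3 stood high for Rusc1 (614.7 against 493.9 to 511.4), CD1d-KO 3 high for Tpm3 (5237 against 4629 to 4684) and CD1d-KO 2 low for 5830417I10Rik (883.9 against 959.1 to 974.6). Among members not called, CD1d-KO 3 stood high for Gatb (898.3 against 760.8 to 767.1) and WT 4 for Prcc (2094 against 1893 to 1916). Leaving out the sample ended the call of Rusc1 and of 5830417I10Rik, not that of Gpatch4, Pklr or Tpm3.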

How the results depend on the processing

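Against 16 called members, 17 were called with TMM factors, 16 without the 50 most abundant genes in the size factors, 15 without independent filtering and 12 with edgeR. The shares of tested genes called were 4.08%, 4.03%, 2.79% and 1.66% in that order. Leaving out 1 sample gave 12 (without WT 3) to 17 (without CD1d-KO 3) called members, a median log2 fold change of -0.099 to -0.072 and 30 to 44 members without overlap, where 2.06% to 4.64% of tested genes were called and 11.5% to 15% did not overlap. Without CD1d-KO 1 and 2 there were 10 called members (2.57% of tested genes called), and with the stomach list as a covariate 8 (0.79%), at a median of -0.105. A window of 85 to 89 Mb held 48 members, with 6 called, 13 without overlap and a median of -0.062, which by construction drops the genes from 89 Mb on. A mean raw count of at least 50 left 110 members and 14 called, and leaving out members with exon overlap left 99 and 14. These 3 member rules used the main fit, in which 4.03% of tested genes were called and 9.61% did not overlap. Of 480 values of named members under alternatives, 434 kept their side of the threshold, 43 (8 members) lost a call, 3 gained one and 0 reversed a call. Changes of sign in members not called were not counted, such as Tlr2 at 0.19 in the main fit and -0.10 with the stomach list as a covariate. The 8 members that lost a call under some alternative were 5830417I10Rik, Rusc1, Pklr, Muc1, Adar, Ube2q1, S100a14 and S100a16, and the cause was not tested.

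With the replicate number as a replicate block, 13 members were called (12 lower), where 3.86% of tested genes were. Same-numbered samples had correlations of deviations from -0.032 to 0.202, and 2 of 4 CD1d-KO samples correlated best with their own number, so the numbers were not taken as pairs. Few counts limit Rnu73b, Muc1, Pear1 and other low members.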
